A study of Mus musculus with 11 samples.

Results

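The genes of collagens, laminins, integrins and the enzymes that cut the matrix were followed in cultured mouse oligodendrocytes with and without Myrf. They were taken by symbol from the probe sets that carry a single gene name: Col, Lam, Itg, Adamts, Mmp, Timp and Thbs genes, without the cartilage collagens Col2a1, Col9a1, Col9a3, Col11a1 and Col11a2. That gave 227 of 34958 such probe sets, for 114 of 18194 genes. A signal of at least 200 on at least 3 arrays was required before a gene was tested, which 38 of the 114 members passed, among 10070 genes in all.

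The study measured RNA on 11 Affymetrix Mouse Genome 430 2.0 arrays, as MAS 5.0 signals on a linear scale. Knockout oligodendrocytes (n = 3 arrays) were MRF fl/fl with Olig2 wt/cre, and control oligodendrocytes (n = 4), from littermates, were MRF wt/fl with Olig2 wt/cre, so both carry Cre in 1 Olig2 allele and the controls 1 floxed allele. MRF is an older name of Myrf, a transcription factor of myelinating cells. The cells came from brains at postnatal day 7, were selected for PDGFRα after depletion of microglia, and spent 4 days in T3 at 40 ng/ml without PDGF. The 4 progenitor arrays are of cells kept dividing with PDGF (10 ng/ml, 6 days), and their labels state no genotype other than the word control. B27 at 2% is stated for all 11 samples. Nothing in the labels ties replicates to separate animals or cultures, so the p-values reflect the spread between these arrays, part of which may be technical.

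Collagens and laminins are secreted proteins that assemble into fibrils and into basement membranes, the thin sheets on which cells rest. Cells hold on to them through integrins, receptors built from an alpha and a beta subunit, and MMP and ADAMTS enzymes cut them while TIMP proteins block those enzymes. In the central nervous system this matrix is sparse outside the vessel wall and the surface of the brain, and oligodendrocytes meet laminin through integrins when they extend their processes.

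All arrays had the trimmed mean of 500 set by the authors' scaling. Signals of Myrf were 2849, 1904 and 2223 on knockout replicates 1 to 3 and 6215 to 7517 on control arrays, 3-fold lower (limma, adjusted p = 0.127, and 0.000892 with replicate number as a block); whether its probe set lies in the deleted stretch was not examined. Progenitor replicate 2 stood apart, with Myrf at 6848 against 752.1 to 1135 on the other progenitor arrays. Progenitor replicates 1 and 4 had low 5′ to 3′ ratios of Gapdh, 0.332 and 0.12 against 1.15 to 1.41 on all other arrays, a measure of RNA or labelling quality. Markers of the labelled cells were present: 7 oligodendrocyte genes summed to 52538 to 60200 on knockout arrays, 80148 to 101723 on control arrays and 30025 to 75044 on progenitor arrays. Among progenitor arrays, replicate 2 had the highest oligodendrocyte sum (75044) and the lowest sum of progenitor genes (7439). Those 2 genes, Pdgfra and Cspg4, summed to 1484 to 1783 on knockout, 1813 to 3619 on control and 7439 to 22608 on progenitor arrays. The 12 astrocyte genes summed to 100931 to 109280, 66488 to 90402 and 9208 to 12423 in the same order. Among them Gfap and Aqp4, defining genes of astrocytes, were present on all 7 oligodendrocyte arrays, at 14658 to 17212 and 7156 to 14418, and reached 100.3 and 21.9 on progenitor arrays. The 19 fibroblast and pericyte genes summed to 12256 to 15393, 1996 to 6873 and 875 to 1367. Of those 19, 7 reached a signal of 200 on any array (Tagln, Myl9, Acta2, Igf2, Islr, Dcn and Ogn), while Pdgfrb reached 92.6 and the pericyte genes Kcnj8 and Abcc9 23.6 and 21. None of the 10 microglial genes exceeded 152.2, and the member gene Itgam, a microglial integrin, reached 21.6. Signals sum RNA over all cells of a culture, so fewer cells of a type and less RNA per cell cannot be told apart.

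Between knockout and control oligodendrocytes the protease Adamts4 fell 9.79-fold, and the integrin subunit Itgb8 fell 1.63-fold. The collagens Col16a1 and Col27a1 and the inhibitor Timp4 rose, by 2.03, 2.37 and 2.56-fold. These were 5 of the 38 tested members, or 13.2%, where 7.53% of all genes were called (limma, adjusted p under 0.05), and with so few members 5 calls lie near that background. Most members lay on the high side without passing: 31 of 38 differences were above 0, with a median log2 difference of 0.29 against 0.03 over all genes. The arrays of both groups did not overlap for 12 members, 8 higher and 4 lower in the knockout, which is 31.6% of members and 31.6% of all genes. A fit of the compared groups alone called 10 members, 6 higher and 4 lower, where 15.8% of all genes were called. With replicate number as a block, 13 were called, 9 higher and 4 lower, where 22.2% of all genes were called. That fit keeps only replicate numbers found in both groups, so it leaves out control replicate 4 and all progenitor arrays. In the fit over all groups the count was 9 without progenitor replicate 2 and 2 without knockout replicate 1 or 2. It was 3 without knockout replicate 3 or control replicate 1 or 4. Quantile normalization also called 5 members, but 4 higher and 1 lower, where 855 of 10059 genes were called.

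**Figure D1:**
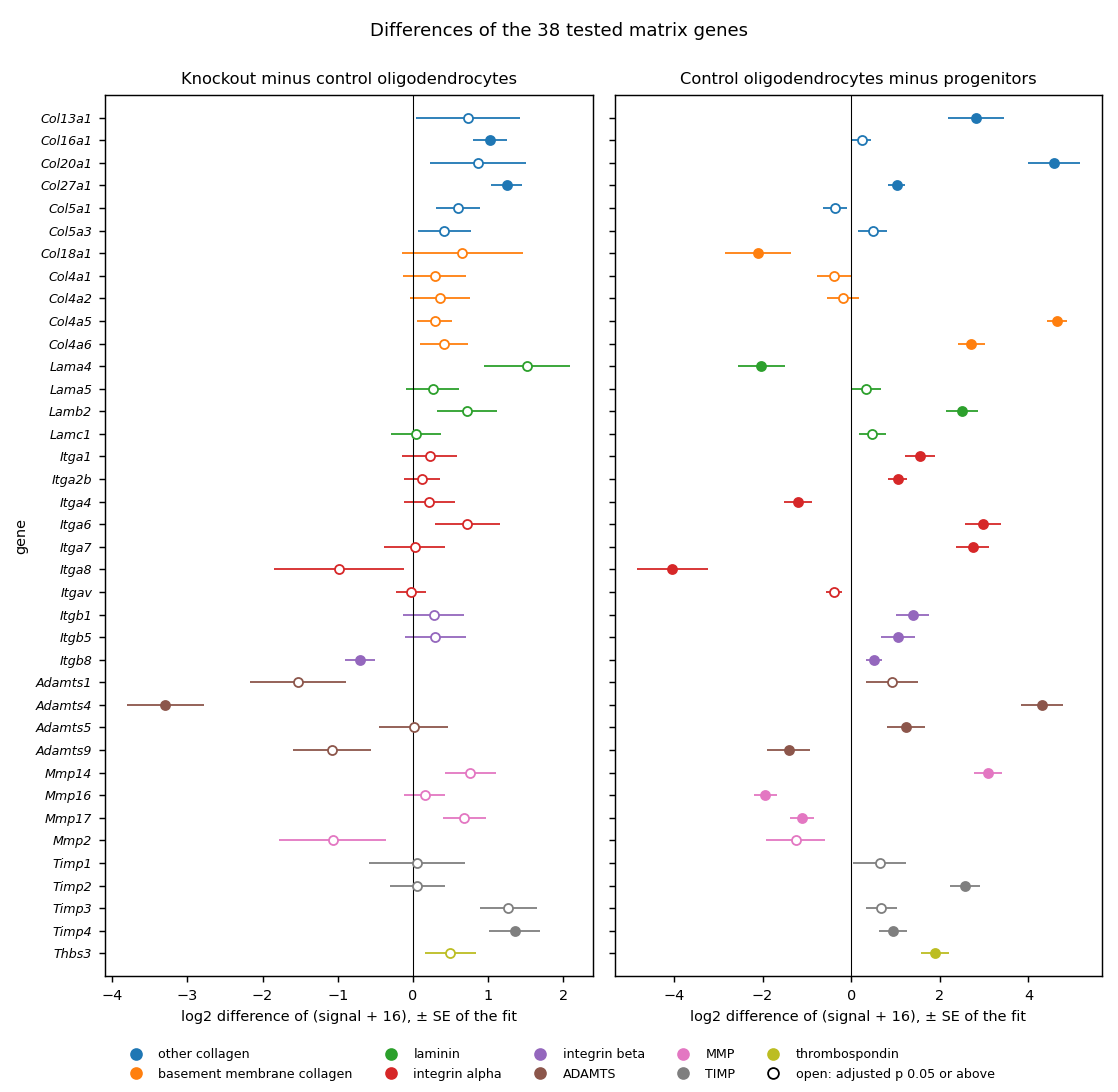
Fitted log2 differences of signal plus 16 for the 38 tested members, with the standard error of the fit, for knockout minus control oligodendrocytes (left) and control oligodendrocytes minus progenitors (right). Filled points have an adjusted p under 0.05: 5 on the left, of which Adamts4 lies farthest from 0 at -3.29, and 26 on the right.

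Collagens that are not part of basement membranes came first by number, with 29 members, of which 6 were tested. All 6 had positive differences between knockout and control, with a median of 0.80 on the log2 scale, and 2 passed. Col16a1 encodes a collagen that attaches to the surface of fibrils. Its signals were 3765, 4359.8 and 3059.7 on knockout replicates 1 to 3, and 1675, 1726, 1382 and 2655 on control replicates 1 to 4. All 3 knockout arrays were above all 4 control arrays, though control replicate 4 came near the lowest of them. Progenitor arrays lay at 1235 to 1765, and those of control oligodendrocytes overlapped with them. Between knockout and control Col16a1 differed by 1.03 ± 0.23 on the log2 scale (SE; limma, adjusted p = 0.0168), and the call was lost without knockout replicate 1 (0.0717), knockout replicate 2 (0.0946) or control replicate 1 (0.0518).

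Col27a1, a fibril-forming collagen best known from cartilage, gave 1057, 1150.4 and 1198 on the knockout arrays and 462, 357, 629 and 462 on the control arrays. The knockout arrays lay close together and well clear of the controls. The log2 difference was 1.25 ± 0.21 (SE; limma, adjusted p = 0.00289) and it passed under all 21 alternative settings. Progenitors had 208, 278, 204 and 201, below every control array, so the signal rose from progenitors to control oligodendrocytes (1.03, adjusted p = 0.000936) and was higher again in the knockout. A second, dimmer probe set of Col27a1 gave a log2 difference of 0.69 between knockout and control that did not pass (adjusted p = 0.29 among all probe sets).

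Col20a1, a collagen of the same fibril-associated family as Col16a1, differed most between oligodendrocytes and progenitors among the collagens outside basement membranes. It gave 6158, 6688 and 3789 on knockout arrays, 4523, 3915, 1521 and 2795 on control arrays and 28.4, 380.4, 188 and 50.7 on progenitor arrays. Every oligodendrocyte array lay above every progenitor array, and the knockout and control arrays overlapped. Control oligodendrocytes exceeded progenitors 23.8-fold (limma, adjusted p = 8.97e-05), or 10.4-fold without progenitor replicates 1 and 4. Knockout against control gave 0.87 ± 0.64 (SE; adjusted p = 0.486), and 0.0211 with replicate number as a block. All 4 of its probe sets had positive differences there, from 0.63 to 0.95. Col13a1, a collagen that spans the cell membrane, had 253, 573, 34.5 and 357 on control arrays and 6.8 to 31.6 on progenitor arrays. It was at least 2.06-fold higher in control oligodendrocytes than a floor of 100, under which all progenitor arrays lay (limma, adjusted p = 0.00322), and at least 3.73-fold without control replicate 3, the only control array under 100. The fibrillar collagens Col5a1 and Col5a3 had log2 differences of 0.60 and 0.42 between knockout and control that did not pass (adjusted p = 0.265 and 0.548).

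The promoter side of the genes that rose in the knockout is shown to give the sequence context of these calls. Each line gives the 250 bases before the annotated transcript start, read 5′ to 3′ along the gene, from RefSeq on GRCm38.p6. Capitals mark GGGCGG on either strand, a GC box to which Sp1 binds, and none of these windows held the TATA box TATAAA or CTGGNAC, a reported core of Myrf binding sites. Col16a1 lies at chr4:130047590-130047839 on the plus strand, Col27a1 at chr4:63215162-63215411 on the plus strand and Timp4 at chr6:115252206-115252455 on the minus strand.
Col16a1: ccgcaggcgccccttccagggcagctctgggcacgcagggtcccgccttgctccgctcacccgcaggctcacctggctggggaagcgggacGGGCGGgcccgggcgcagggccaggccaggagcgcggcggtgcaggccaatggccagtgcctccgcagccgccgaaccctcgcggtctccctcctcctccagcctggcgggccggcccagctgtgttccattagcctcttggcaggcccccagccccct
Col27a1: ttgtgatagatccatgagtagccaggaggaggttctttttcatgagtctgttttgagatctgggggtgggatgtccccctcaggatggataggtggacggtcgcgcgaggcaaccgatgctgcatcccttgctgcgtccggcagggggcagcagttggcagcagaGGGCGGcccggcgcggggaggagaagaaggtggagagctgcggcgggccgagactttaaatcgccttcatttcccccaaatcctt
Timp4: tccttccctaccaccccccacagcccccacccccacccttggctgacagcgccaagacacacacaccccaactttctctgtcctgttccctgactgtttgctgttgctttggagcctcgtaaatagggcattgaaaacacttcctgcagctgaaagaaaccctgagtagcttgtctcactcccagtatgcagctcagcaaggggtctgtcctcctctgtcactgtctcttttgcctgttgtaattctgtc
The GC box lay 154 bases before the start of Col16a1 and 80 bases before that of Col27a1, and Timp4 had none. Of 32851 windows of this length in the RefSeq table, 32.7% held GGGCGG, 12.4% held TATAAA and 16.1% held CTGGNAC on either strand. A window with or without these letters is a description of sequence and says nothing about which factor binds.

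**Figure D2:**
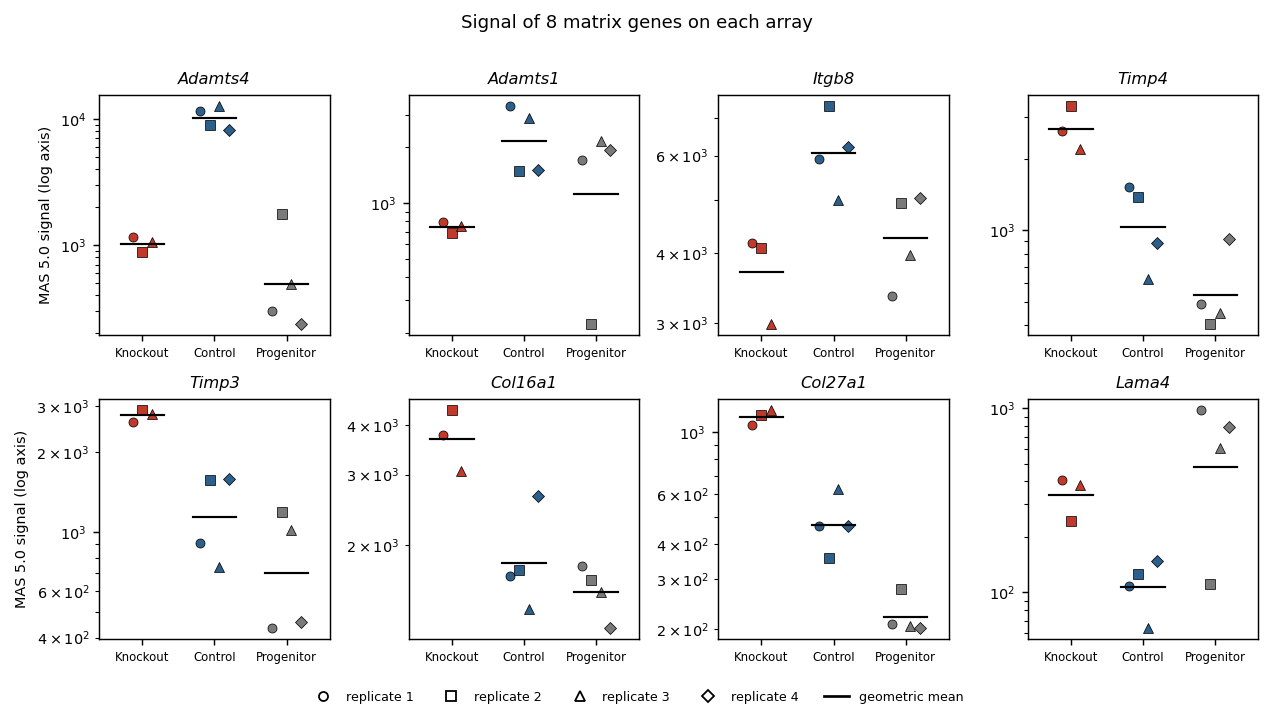
MAS 5.0 signals (log axis) of 8 genes on each of the 3 knockout, 4 control and 4 progenitor arrays, with 1 symbol per replicate number and a line at the geometric mean. Knockout arrays of Adamts4 lie between 875 and 1152, below all control arrays, while those of Timp4, Timp3, Col16a1 and Col27a1 lie above all control arrays.

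Basement membrane collagens had 8 members, of which 5 were tested, and all 5 differences between knockout and control were positive but none passed, with adjusted p-values in limma of 0.506 to 0.749 and no unadjusted p under 0.05. The class split by chain against progenitors. Col4a5 and Col4a6 encode the α5 and α6 chains of type IV collagen, which can assemble with each other. Col4a5 gave 2288, 2571 and 3090.5 on knockout arrays, 1683, 2389, 2112 and 2530.3 on control arrays and 70.5, 51, 111 and 60.4 on progenitor arrays. No progenitor array came near any oligodendrocyte array. Control oligodendrocytes were 25-fold above progenitors (log2 difference 4.65 ± 0.22, SE; limma, adjusted p = 3.93e-08). Col4a6 gave 386, 762 and 461, then 376, 532, 259.9 and 408, then 24.6, 62.5, 46.3 and 52.5 in the same order. It was at least 3.82-fold higher in control oligodendrocytes than the floor of 100 (limma, adjusted p = 2.79e-05). In the comparison of knockout with control neither passed (adjusted p = 0.537 for Col4a5 and 0.506 for Col4a6).

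The α1 and α2 chains, which form the network common to all basement membranes, did not share that pattern. Col4a1 had 533, 669 and 917 on knockout arrays, 584, 659.9, 328 and 786 on control arrays and 446 to 1689.7 on progenitor arrays, all overlapping. Its log2 difference from progenitors to control oligodendrocytes was -0.38 ± 0.38 (SE; limma, adjusted p = 0.416), and a second probe set of Col4a1 had the opposite sign. Col4a2 gave -0.19 ± 0.37 (adjusted p = 0.688). Col18a1, whose C-terminal fragment is endostatin, had 421, 477, 532 and 343 on control arrays and 4109, 219.5, 3265 and 4403 on progenitor arrays. Progenitor replicate 2 lay below all control arrays and the other 3 well above them. The fall of Col18a1 from progenitors to control oligodendrocytes was 4.27-fold (limma, adjusted p = 0.0316) and 8.62-fold without progenitor replicate 2. It was lost, at 0.0563 to 0.0946, without any one of control replicates 1, 2 and 4 or progenitor replicates 1, 3 and 4, and was 1.94-fold without both progenitor replicates 1 and 4 (0.348).

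Col4a5 and Col4a6 moved together and lie head to head on the X chromosome, with 1343 bases between their annotated starts, so their upstream windows are printed as a pair. Col4a5 is at chrX:141475169-141475418 on the plus strand and Col4a6 at chrX:141474077-141474326 on the minus strand, both the 250 bases before the start.
Col4a5: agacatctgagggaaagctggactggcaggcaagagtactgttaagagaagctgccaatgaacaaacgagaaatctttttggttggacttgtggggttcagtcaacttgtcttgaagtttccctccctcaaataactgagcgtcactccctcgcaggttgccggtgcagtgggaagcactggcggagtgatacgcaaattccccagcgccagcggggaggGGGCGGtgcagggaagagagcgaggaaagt
Col4a6: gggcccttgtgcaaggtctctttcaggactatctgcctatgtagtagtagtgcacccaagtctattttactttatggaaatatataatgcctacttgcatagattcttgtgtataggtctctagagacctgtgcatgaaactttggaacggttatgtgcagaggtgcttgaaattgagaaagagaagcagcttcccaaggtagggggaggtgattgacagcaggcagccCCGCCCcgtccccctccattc
Each window held 1 GC box, in capitals, 25 bases before the start of Col4a5 and, as CCGCCC on the strand shown, 16 bases before that of Col4a6. Neither held TATAAA or CTGGNAC.

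Laminins, trimers of an alpha, a beta and a gamma chain, had 10 members and 4 tested: Lama4, Lama5, Lamb2 and Lamc1. None passed between knockout and control in limma, 1 had an unadjusted p under 0.05, and the block called 2. Lama4, the alpha chain of vessel and peripheral nerve laminins, gave 406, 243 and 384 on knockout arrays against 108, 125, 63.6 and 148 on control arrays, without overlap. Its log2 difference was 1.52 ± 0.58 (SE; limma, adjusted p = 0.149), and 0.0136 with replicate number as a block. Progenitors had 979, 111, 609.5 and 788, where replicate 2 alone lay among the control arrays. From progenitors to control oligodendrocytes Lama4 fell 4.08-fold (limma, adjusted p = 0.00749), 6.45-fold without progenitor replicate 2, and 2.29-fold without progenitor replicates 1 and 4, where it did not pass (0.108). Lamb2, the beta chain found at synapses and kidney filters, gave 279.5, 405 and 239 on knockout, 206, 217, 90 and 229.9 on control and 3.8 to 34.9 on progenitor arrays. It was at least 1.74-fold above the floor in control oligodendrocytes (limma, adjusted p = 0.000214), and it too passed between knockout and control under the block (0.0407, and 0.327 without it). The fibroblast and pericyte sum was higher on all knockout arrays than on all control arrays, in the order given above. Among control arrays it was lowest on replicate 3, where Lama4 and Lamb2 were lowest as well. Among knockout arrays the sum was highest on replicate 2, where Lamb2 was highest but Lama4 lowest. On progenitor arrays the sum and Lamb2 were lower than on all oligodendrocyte arrays, while Lama4 on progenitor replicates 1, 3 and 4 was above all of them. Only 7 of the 19 fibroblast and pericyte genes reached a signal of 200 on any array, so the sum does not stand for all genes of the list. The part of this sum in these differences was not tested. Lama5 passed in neither comparison with progenitors. Lamc1, the common gamma chain, gave 0.48 and 0.52 on the log2 scale in control and knockout oligodendrocytes against progenitors, which did not pass with all arrays (limma, adjusted p = 0.204 for control) but passed without progenitor replicate 2 (0.0361 and 0.0393). A dimmer probe set of Lamc1 rose by 2.17 and 2.16 (adjusted p = 0.00157 and 0.00267 among all probe sets), so the probe sets of this gene gave different answers.

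Integrin alpha subunits had 16 members and 7 tested, and none passed between knockout and control in limma, where none had an unadjusted p under 0.05. The block called 1, Itga6. Against progenitors they separated into subunits gained and subunits lost. Itga6, an alpha chain of laminin receptors, gave 1919, 2488 and 2171 on knockout, 1175, 1288, 994 and 1980.5 on control and 244, 45.8, 253 and 172 on progenitor arrays. It was 7.89-fold higher in control oligodendrocytes than in progenitors (limma, adjusted p = 0.000121), and a single control array, replicate 4, reached into the knockout range. Knockout against control gave 0.72 ± 0.44 (SE; adjusted p = 0.374). Under the block, which leaves out control replicate 4, the difference was 0.92 (adjusted p = 0.00806). Itga7, another laminin receptor chain, gave 824, 1189 and 809 on knockout, 739.6, 829.9, 1185 and 936 on control and 182, 37, 168 and 171 on progenitor arrays. It rose 6.71-fold (adjusted p = 0.000127) with fully overlapping knockout and control arrays. Itga1, a collagen receptor chain, was at least 1.78-fold above the floor (adjusted p = 0.00257), and Itga2b, known from platelets, was 2.06-fold higher (0.00207).

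Itga8, an alpha chain that binds nephronectin, went the other way. It gave 60.5, 44.4 and 94.5 on knockout arrays, 78.1, 106, 250 and 188 on control arrays and 6484, 279, 4705 and 4978 on progenitor arrays. Progenitor replicate 2 was the only progenitor array close to the oligodendrocyte arrays, yet still above all of them. The fall from progenitors to control oligodendrocytes was 16.4-fold (limma, adjusted p = 0.00145), 33.9-fold without progenitor replicate 2 and 7.48-fold without progenitor replicates 1 and 4. All knockout arrays lay under 100, at least 25.5-fold below progenitors (adjusted p = 0.000629), or 53.3-fold without progenitor replicate 2. Itga4, a receptor chain for fibronectin and VCAM1, had 65.9 to 91.3 on control arrays and 253, 99.2, 247 and 254 on progenitor arrays. It was at least 1.99-fold higher in progenitors (adjusted p = 0.00675), which ended without progenitor replicates 1 and 4 (0.0891). Itgav is the chain shared by the receptors for vitronectin and latent TGF-β. It had 6484 to 7979 on knockout, 6789 to 7712 on control and 7145 to 14227 on progenitor arrays. With all arrays it passed in none of the 3 comparisons. Without progenitor replicate 2 both comparisons with progenitors passed in limma, at -0.53 for control (adjusted p = 0.0172) and -0.55 for knockout (0.0196). A dimmer probe set of Itgav rose by 1.69 on the log2 scale from progenitors to control oligodendrocytes (adjusted p = 0.00468 among all probe sets), so the probe sets of this gene gave different answers.

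Integrin beta subunits had 9 members and 3 tested. Itgb8 pairs with the αv chain in a receptor that activates latent TGF-β. Its signals were 4178, 4098 and 2983 on knockout arrays, 5910, 7383, 4982 and 6225 on control arrays and 3357, 4920.1, 3978 and 5025 on progenitor arrays. All knockout arrays lay below all control arrays and overlapped with progenitors. The log2 difference was -0.71 ± 0.20 (SE; limma, adjusted p = 0.0494), just inside the threshold, and passed under 9 of 21 alternatives. It was lost, at 0.0601 to 0.194, without any one knockout array, control replicate 1, 2 or 4, or progenitor replicate 3, and also with a pseudocount of 1, another filter, quantile normalization or separate probe sets. The 1.42-fold rise of Itgb8 from progenitors to control oligodendrocytes (adjusted p = 0.0333) was likewise lost, at 0.0617 to 0.104, without control replicate 1, 2 or 4 or progenitor replicate 1 or 3. Itgb1, the beta chain shared by most collagen and laminin receptors, gave 3732, 3818, 2138 and 2277 on control arrays and 943, 1969, 1557 and 484 on progenitor arrays. It rose 2.62-fold (limma, adjusted p = 0.00844), and 1.64-fold without progenitor replicates 1 and 4, where it no longer passed (0.06). Knockout against control gave 0.28 ± 0.41 for Itgb1 (SE; adjusted p = 0.751). Itgb5 rose 2.08-fold from progenitors (adjusted p = 0.0336), but at 0.0648 to 0.0938 without control replicate 1, 2 or 4 or progenitor replicate 2 or 3, and was 3.43-fold without progenitor replicates 1 and 4. Its other probe set gave a log2 difference of 3.23 where this one gave 1.05, so the size of that change is uncertain.

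**Figure D3:**
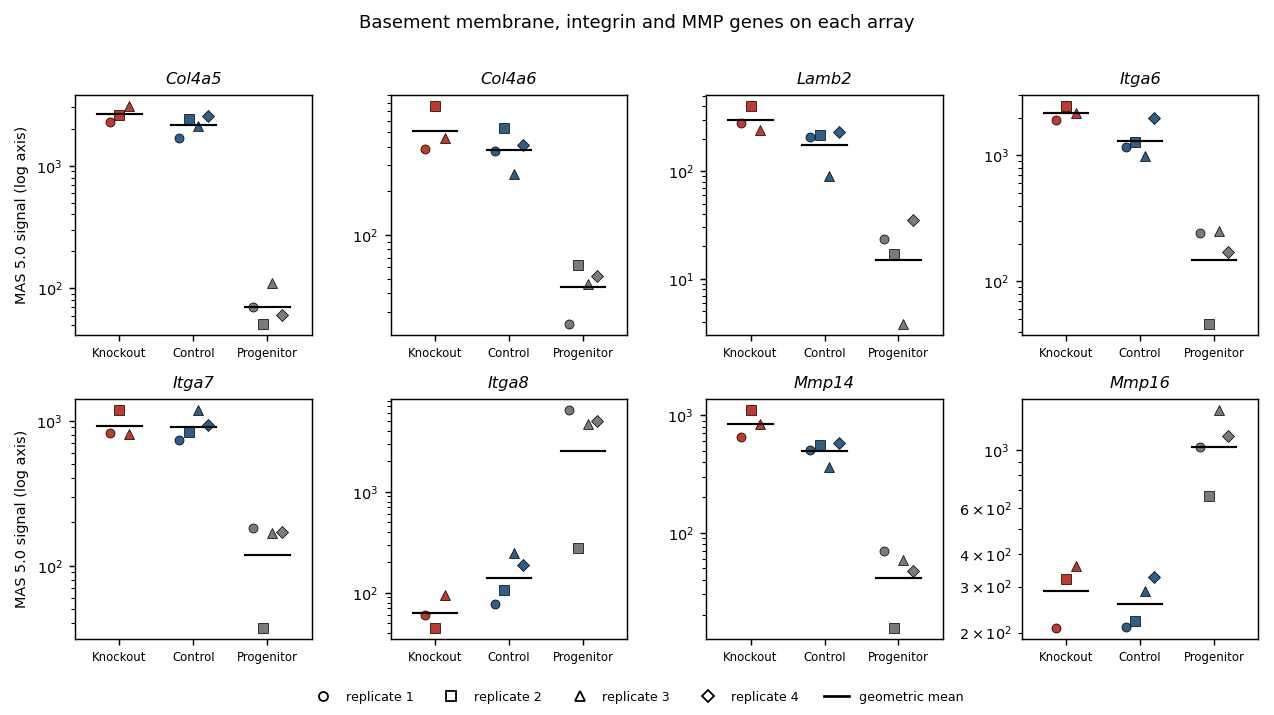
MAS 5.0 signals (log axis) of 8 basement membrane, integrin and MMP genes on each array, with 1 symbol per replicate number and a line at the geometric mean. Knockout and control arrays of Col4a5, Itga7 and Mmp16 overlap, while progenitor arrays lie below them for Col4a5 and above them for Mmp16 and Itga8.

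ADAMTS enzymes are secreted proteases with thrombospondin repeats, and 4 of 15 members were tested. Adamts4, an aggrecanase that cuts the proteoglycans aggrecan, brevican and versican, gave 1152, 875 and 1067 on knockout arrays. Control arrays gave 11557, 8895, 12749 and 8154, and progenitor arrays 301, 1748, 488 and 236. The knockout arrays lay far below every control array and inside the progenitor range, whose top was replicate 2. The difference between knockout and control was -3.29 ± 0.51 on the log2 scale (SE), 9.79-fold lower (limma, adjusted p = 0.00209), and it passed under all 21 alternatives, with folds of 9.03 to 10.7. From progenitors to control oligodendrocytes Adamts4 rose 19.7-fold (adjusted p = 2.94e-05), 29.7-fold without progenitor replicate 2 and 10.8-fold without progenitor replicates 1 and 4. Knockout oligodendrocytes against progenitors gave 1.01 ± 0.51 (SE; adjusted p = 0.117), which passed without progenitor replicate 2 (3.04-fold, 0.000215) and was 1.1-fold without progenitor replicates 1 and 4 (0.811). Both probe sets of Adamts4 gave the same size of difference between knockout and control, -3.29 and -3.28. The oligodendrocyte marker sum was also lower on every knockout array than on every control array, and its part in the fall of Adamts4 was not tested.

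Adamts1, a related aggrecanase, gave 787, 691 and 748 on knockout arrays against 3352, 1485, 2878 and 1510.4 on control arrays, without overlap. The log2 difference of -1.52 ± 0.64 (SE) did not pass in the fit of all arrays (limma, adjusted p = 0.189), in which progenitor arrays of 222 to 2163 enter the spread. It passed with replicate number as a block (0.00416), with only the compared groups (0.00873) and without progenitor replicate 2. Adamts9, which cuts versican, gave 237, 227 and 236 on knockout arrays against 401, 439, 781 and 495 on control arrays. Its difference of -1.08 ± 0.52 did not pass either (adjusted p = 0.259, and 0.0187 under the block). Adamts9 was highest in progenitors, at 2659, 381, 1599 and 2222, and fell 5.62-fold from there to knockout oligodendrocytes (limma, adjusted p = 0.00208), 8.55-fold without progenitor replicate 2 and 3.21-fold without progenitor replicates 1 and 4. The 2.66-fold fall to control oligodendrocytes (0.0267) was 4.04-fold without progenitor replicate 2 and was lost, at 0.054 to 0.0846, without control replicate 1, 2 or 4 or progenitor replicate 1, 3 or 4. Without both progenitor replicates 1 and 4 it was 1.52-fold (0.319). Adamts5, the main aggrecanase of mouse cartilage, overlapped between knockout and control, at 135 to 237 and 113 to 263, with a log2 difference of 0.01 ± 0.45 (adjusted p = 0.992). From progenitors to control oligodendrocytes it rose 2.35-fold (0.0265), and at 0.0595 to 0.0729 without control replicate 1, 2 or 4.

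MMP genes had 18 members and 4 tested, and none passed between knockout and control in limma, 2 at an unadjusted p under 0.05, Mmp14 and Mmp17. Mmp14, a membrane-bound collagenase that activates MMP2, gave 648, 1111 and 843 on knockout, 507, 556, 361 and 578 on control and 69.4, 15.4, 59 and 47.2 on progenitor arrays. The groups were ordered without overlap, knockout above control above progenitors. Knockout minus control was 0.76 ± 0.34 on the log2 scale (SE; limma, adjusted p = 0.215), and 0.0289 under the block. Mmp14 was at least 4.93-fold higher in control oligodendrocytes than the floor of 100 (adjusted p = 1.48e-05). Mmp16 and Mmp17, also bound to the membrane, had the opposite order against progenitors. Mmp16 gave 207, 319.9 and 359 on knockout arrays and 210, 220.4, 288 and 326 on control arrays. Progenitor arrays gave 1029, 668, 1426 and 1135, above all of them. It fell 3.82-fold from progenitors to control oligodendrocytes (limma, adjusted p = 0.000102), and all 3 of its probe sets fell. Mmp17 fell 2.17-fold (0.00475), with 426, 188, 419 and 282 on progenitor and 110 to 174 on control arrays. Mmp2, a gelatinase, was low on knockout arrays, at 7, 63.7 and 120.1, and had 465 on control replicate 3 but 57.4 to 84.9 on the other control arrays. It was 5-fold lower in knockout oligodendrocytes than in progenitors (0.0172), and 3.02-fold without knockout replicate 1, where it did not pass (0.0894), as without progenitor replicates 1 and 4 (0.14). Control oligodendrocytes differed from progenitors in Mmp2 only when control replicate 3 was left out (3.67-fold lower, 0.0162) or arrays were weighted.

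The 4 TIMP genes, the inhibitors of these enzymes, all passed the filter. Timp4 gave 2625, 3358 and 2201 on knockout arrays, 1518, 1380.2, 627 and 887 on control arrays and 491, 403, 451 and 919 on progenitor arrays. The knockout arrays lay above all others. Knockout minus control was 1.36 ± 0.34 on the log2 scale (SE), 2.56-fold (limma, adjusted p = 0.0303). It was lost without knockout replicate 1 (0.0968), 2 (0.15) or 3 (0.061) and without control replicate 3 (0.0804) or 4 (0.0702), though the fold stayed between 2.17 and 2.83. Timp3, which also blocks ADAM and ADAMTS enzymes, gave 2607, 2896 and 2789 on knockout arrays and 907, 1574, 738 and 1584 on control arrays. These groups did not overlap either. Its difference of 1.27 ± 0.38 (SE) missed the threshold (limma, adjusted p = 0.0646) and passed under the block (0.00659), with only the compared groups (0.0131), without progenitor replicate 2 (0.0223), without progenitor replicates 1 and 4 (0.015) and under quantile normalization. All 4 probe sets of Timp3 gave log2 differences of 1.22 to 1.33, and both of Timp4 1.24 to 1.36.

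Timp2, an inhibitor that also takes part in the activation of MMP2, gave 3546, 4347 and 6056 on knockout arrays, 3849.8, 3821, 4974 and 4928 on control arrays and 501, 1487, 846 and 419 on progenitor arrays. It rose 5.95-fold from progenitors to control oligodendrocytes (limma, adjusted p = 9.07e-05), 3.84-fold without progenitor replicates 1 and 4, and knockout and control overlapped (0.06 ± 0.36, SE; adjusted p = 0.953). Timp1 passed in no comparison, with 412 to 650.1 on knockout and 388 to 638 on control arrays. Timp1, Timp3 and Timp4 each lie inside a synapsin gene in RefSeq (Syn1, Syn3 and Syn2). Syn2, which holds Timp4, gave 301.6, 460 and 446.5 on knockout and 159.1 to 284.6 on control arrays, with a log2 difference of 0.90 that did not pass (adjusted p = 0.172). On the same arrays the astrocyte sum was higher in every knockout than in every control array. Among control arrays both it and Timp4 were lowest on replicate 3, which was also the lowest for Timp3, Col20a1, Itga6 and Mmp14. The order on the remaining arrays differed. Among control arrays the sum was highest on replicate 4, where Timp4 was lower than on replicates 1 and 2. Among knockout arrays it was highest on replicate 3, where Timp4 was lowest. The part of astrocyte RNA in the TIMP differences was not tested.

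Of thrombospondins, large secreted proteins that bind matrix and cell surface, only Thbs3 of 4 members was tested. It gave 251, 492 and 253 on knockout, 172, 327, 172 and 236 on control and 78.4, 40.5, 36.7 and 41 on progenitor arrays. Thbs3 was at least 2.18-fold above the floor in control oligodendrocytes (limma, adjusted p = 0.000432) and did not pass between knockout and control (0.50 ± 0.34, SE; adjusted p = 0.434).

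Over all tested members, control oligodendrocytes exceeded progenitors in 19 of 38 (50%) and fell below them in 7 (18.4%), where 24.4% and 29.6% of all genes were called in these directions (limma, adjusted p under 0.05). The median log2 difference was 0.80 among members and -0.09 over all genes. Single arrays left out gave 20 to 28 calls. In knockout oligodendrocytes against the same progenitor arrays, 20 (52.6%) were higher and 5 (13.2%) lower, where the shares over all genes were 23.8% and 26.8%. These comparisons share the progenitor arrays and are not independent. Several members called higher, such as Col4a5, Col4a6, Mmp14 and Thbs3, had all progenitor arrays under 200 and passed the filter through oligodendrocyte arrays alone. Itga4, called lower, passed it through progenitor arrays alone. For such genes the filter itself favoured the direction found, and the same filter applied to all genes. By member the values stood close together for several genes: log2 differences from progenitors were 4.65 in control and 4.93 in knockout cultures for Col4a5, 2.75 and 2.77 for Itga7, and 2.57 and 2.63 for Timp2. They stood apart for Adamts4, at 4.30 and 1.01, for Col16a1, at 0.24 and 1.26, and for Timp4, at 0.94 and 2.29. Both values of a gene use the same progenitor mean, so their gap only repeats its difference between knockout and control. The astrocyte sum was lower on every progenitor array than on any oligodendrocyte array, and its part in the rise of matrix genes from progenitors was not tested.

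**Figure D4:**
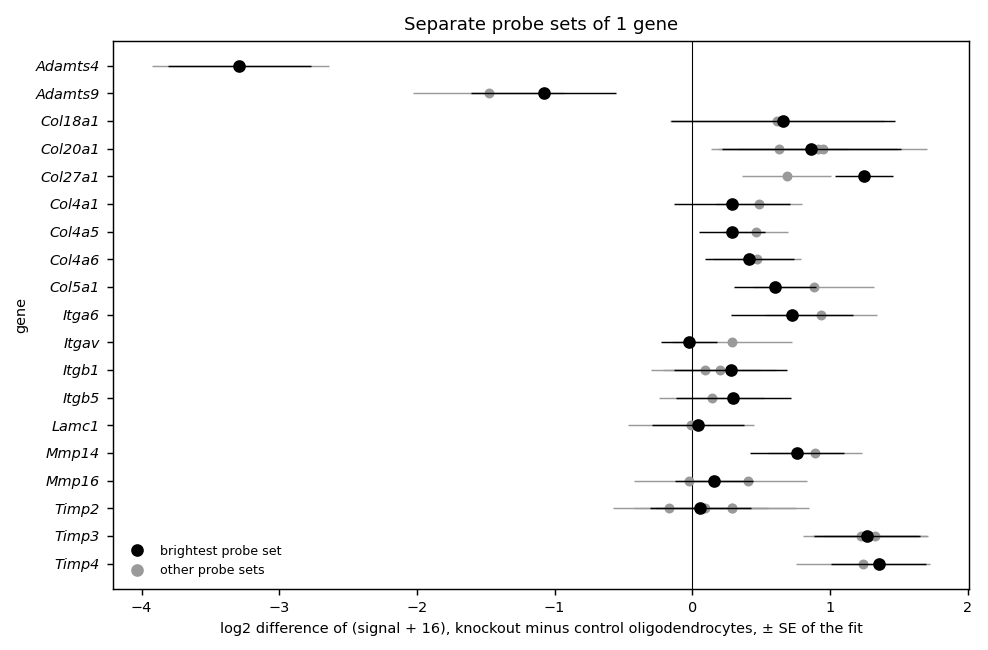
Log2 differences of signal plus 16 between knockout and control oligodendrocytes, with the standard error of the fit, for every tested probe set of the 19 genes with more than 1. The brightest probe set, which represents the gene, is black; 15 of 19 genes have all probe sets on the same side of 0, the exceptions being Itgav, Lamc1, Mmp16 and Timp2, whose differences are small.

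Genes that build collagen, bind basement membranes, anchor integrins or cut matrix by other means were counted from lists of the pathway. The counts between knockout and control stand against 7.53% of all genes called, 15.8% with only the compared groups fitted and 22.2% with the block. Of 19 tested collagen processing genes 3 rose in the knockout and none fell, with a median log2 difference of 0.37. They were the prolyl hydroxylase subunits P4ha1 (1.15 ± 0.25, SE; limma, adjusted p = 0.0156) and P4ha3 (1.12 ± 0.31; 0.0474), and Plod2, a lysyl hydroxylase (1.55 ± 0.42; 0.0443). P4ha1 gave 1972, 1815.5 and 1811.5 on knockout arrays and 591.8 to 1059.8 on control arrays, without overlap. Serpinh1, the collagen chaperone, had 1.06 ± 0.30 and did not pass (0.0542, and 0.0264 under the block). The block called 7 of these genes, all higher, where the calls over all genes rose as well. The count was 5 without progenitor replicate 2, 1 without control replicate 1 or 2, and no gene passed when any one knockout array was left out. Of 16 basement membrane partners 1 rose, Nid2, which links laminin to collagen IV (1.08 ± 0.29; adjusted p = 0.0437), and the block called 5, all higher. Nid2 gave 267.6, 269.7 and 369.5 on knockout and 82.6 to 164.2 on control arrays, and no gene of the list passed when any one of those 7 arrays, or progenitor replicate 1 or 3, was left out. The fibroblast and pericyte sum, in which 7 of 19 genes reached 200 on any array, was higher on all knockout arrays as well. Its part in these calls was not tested.

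Of 28 integrin adhesion genes 2 rose and 1 fell. Tns2, a tensin that ties integrins to actin, gave 370.8, 365.6 and 354 on knockout arrays and 13 to 75.9 on control arrays, at least 3.63-fold higher than the floor of 100 (limma, adjusted p = 0.00295). Lims2, a partner of integrin-linked kinase, gave 2383, 2274 and 3808 against 441.9 to 729, a rise of 2.24 ± 0.48 on the log2 scale (adjusted p = 0.0142). Rap1a, a small GTPase that activates integrins, gave 5676 to 7306 against 12454 to 14038 and fell by 0.99 (adjusted p = 0.00436). The block called 14 of the 28, 10 higher and 4 lower, a fit of the compared groups 10, and the fit without progenitor replicate 2 called 8. Over all genes the same fits called 2238, 1587 and 1323 in place of 758. Of 18 other matrix proteases and inhibitors none rose and 2 fell: Cemip2, a hyaluronan-binding membrane protein, by 2.82 ± 0.51 (adjusted p = 0.00523), and the membrane protease Adam19 by 1.41 ± 0.39 (adjusted p = 0.0474). Cemip2 gave 206.6 to 270.2 on knockout and 911.1 to 2801 on control arrays. Without any one of 8 arrays (each knockout array, control replicates 1 to 3, and progenitor replicates 1 and 4) 1 of the 2 passed.

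Of the 76 members under the filter, 49 never reached a signal of 100 and 13 reached 200 on some array. The fibrillar collagens of connective tissue were high on 1 array. Col1a1 gave 2, 11.8 and 339.7 on knockout replicates 1 to 3 and 3.1, 5.6, 26.2 and 7.8 on control arrays. Col1a2 gave 54.3, 140.9 and 828.6 against 54.6 to 137.2, and Col3a1 20.5, 167.1 and 956.1 against 1.9 to 136.7. Col5a2 gave 51.8, 105.9 and 440 against 58.2 to 153.6. Knockout replicate 3 alone stood out for all 4 genes, and it was also the highest array for the fibroblast genes Dcn (213.9), Lum (82.9) and Ogn (264.1). Without that array the knockout signals of the 4 collagens lay at or near the control range. Col6a1, of the beaded-filament collagens, gave 187.8, 272.7 and 248.9 on knockout arrays against 98.2 to 194. On the progenitor side, Adamts20 gave 348.1, 25.1, 126.9 and 470.6, Col19a1 420.2, 39.1, 134.7 and 426.3, and Adamts10 383.8, 172.5, 267.5 and 195.5, and all 7 oligodendrocyte arrays lay under 100 for Adamts20 and Col19a1. Progenitor replicate 2 was the lowest of the progenitor arrays for these 3 genes.

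**Figure D5:**
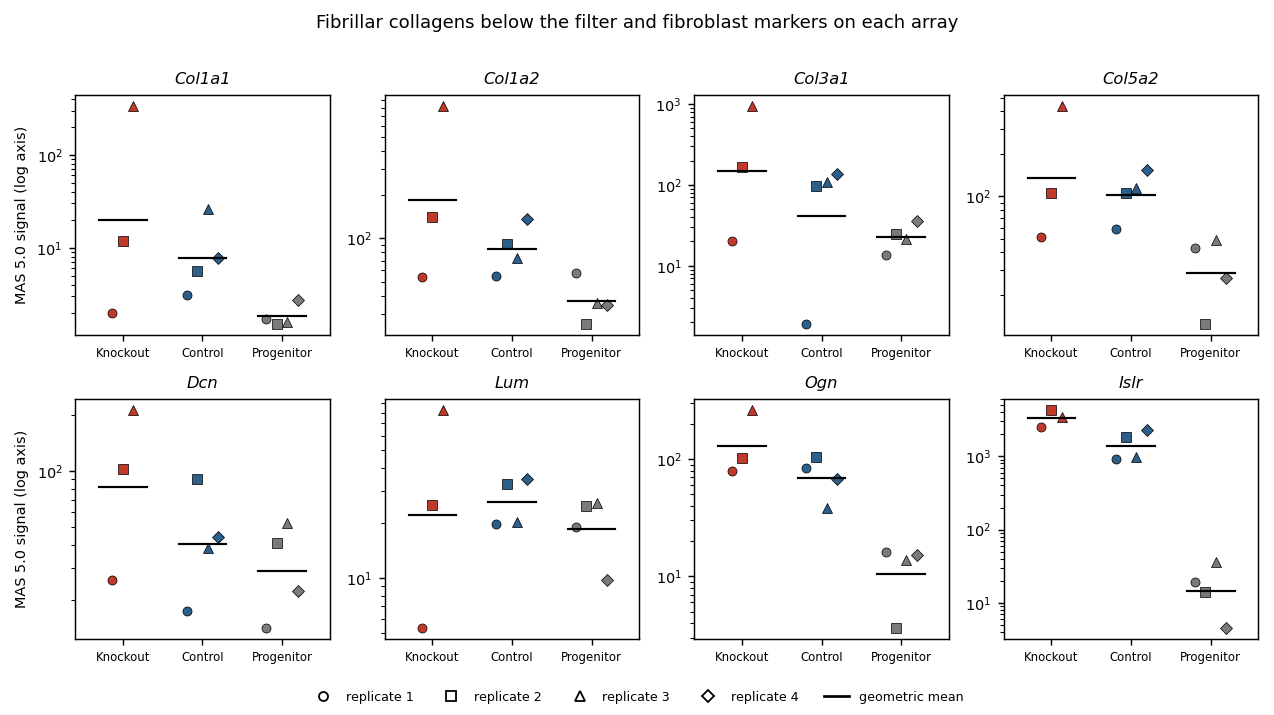
MAS 5.0 signals (log axis) of 4 fibrillar collagens below the filter and of the fibroblast markers Dcn, Lum, Ogn and Islr on each array, with 1 symbol per replicate number and a line at the geometric mean. Knockout replicate 3 (triangle) is the highest array for Col1a1, Col1a2, Col3a1, Col5a2, Dcn, Lum and Ogn, but not for Islr.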

How the data were processed

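RNA of 11 samples was measured on 11 Affymetrix arrays in 3 groups, taken from the sample titles. The authors made the deposited signal intensity values with GCOS 1.3 and MAS 5.0, per the submitters' processing notes, and scaled each array to a target of 500, per the labels' design text; arrays have no read depth, and their number limits precision. Signals were used as log2 of signal plus 16. Probe sets with 1 gene and a signal of 200 on at least 3 arrays were kept, and each gene was represented by its brightest. A mean per group was fitted over all 11 arrays in limma 3.58.1 (R 4.3.3, intensity trend). P-values were adjusted by Benjamini-Hochberg over 10070 genes, with a threshold of 0.05. The same code was tested on simulated data. Where all arrays of the lower group lay under 100, folds are bounds against 100, from mean log2 signals. Members and lists were chosen with earlier results of these data known. Named were members past the threshold between knockout and control, the brightest and most changed of each class, and up to 3 genes called per list and direction; not all are printed. Knockout and control arrays of the same replicate number deviated together (deviation correlations of 0.242, 0.241 and 0.214). With progenitors these values were lower (-0.0687 to 0.193 with control, -0.117 to 0.033 with knockout arrays). The labels do not say what a number stands for, and arrays of different numbers were not compared in this way. The block keeps only numbers found in both compared groups. Alternatives changed the pseudocount (1, 64), filter (none, 400), normalization, probe sets, arrays fitted, block and array weights. Promoter sequences came from RefSeq on GRCm38.p6, where 80 of 114 members had an entry; gene positions relative to each other came from RefSeq of the same build.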

Additional observations from a re-analysis of the deposited data

Results flagged for a closer look

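Among 76 groups of 4 arrays (38 genes in control and progenitor arrays), 11 had an array far from the other 3, with a gap to the nearest, as a share of the whole range, above Dixon's critical value. Chance gives about 1 in 20 such groups. Progenitor replicate 2 was that array in 8 of the 11. It was lowest for Adamts1 (gap 0.896 of the range, a signal of 222.2), Adamts5 (0.834), Col18a1 (0.898), Itga4 (0.97), Itga7 (0.942), Itga8 (0.897) and Timp1 (0.929, a signal of 51.9 against 554.3 to 655.1), and highest for Col27a1 (0.893, 278.3 against 201 to 208.2). Control replicate 3 was lowest for Lamb2 (0.88) and highest for Mmp2 (0.831, a signal of 464.9 against 57.4 to 84.9). Progenitor replicate 1 was highest for Thbs3 (0.865).

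Members left out of the main fit because they missed the filter nevertheless exceeded 200 and all control arrays on single knockout arrays. On knockout replicate 3 these were Col1a1 (339.7), Col1a2 (828.6), Col3a1 (956.1), Col5a2 (440), Col6a1 (248.9) and the integrin alpha chain Itga3 (204.5). On knockout replicate 2 they were Col6a1 (272.7), Col6a2 (241.8) and the protease Mmp19 (209.5). A fit without the filter took in all 114 members. Between knockout and control it called 5 of them, 4 higher and 1 lower, where 713 of 18194 genes were called. Its results for single members under the filter are not printed.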

How the results depend on the processing

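For single members, 2209 of 2352 values under alternative settings kept their side of the threshold, 45 newly passed and 98 no longer passed. The sign changed in 44 of the 2352, none of which passed in either fit. Between knockout and control oligodendrocytes, the 5 members called became 10 with only the compared groups fitted, 13 with the replicate block and 10 with array weights, and 2 to 9 with single arrays left out; all genes gave 1587, 2238, 2160 and 374 to 1323 in place of 758. The block, which leaves out control replicate 4 here, changed no call of members beyond those given. Collagen processing genes (3) gave 1 without a filter, 5 with quantile normalization, 5 with the compared groups, 7 with the block, 7 with weights and 0 to 5 with single arrays left out. Basement membrane partners (1) gave 0 with a pseudocount of 1, a filter of 400, quantile normalization or separate probe sets, 5 with the block, 3 with weights and 0 to 1 with single arrays left out. Integrin adhesion genes (3) gave 5 with separate probe sets, 10 with the compared groups, 14 with the block, 11 with weights, 7 without progenitor replicates 1 and 4, and 2 to 8 with single arrays left out. Other proteases (2) gave 1 with a pseudocount of 1, either other filter, separate probe sets or without progenitor replicates 1 and 4, and 1 to 2 with single arrays left out. Against progenitors, members called ranged from 20 to 28 (control, all genes 4616 to 6119) and 21 to 31 (knockout, 3951 to 5917) with single arrays left out. Without a filter, knockout calls were 44 of 114 members (32 higher, 12 lower), where 5633 of 18194 genes were called. Control calls were then 35 of 114 (25 higher, 10 lower), where 5966 of 18194 genes were called. The replicate block gave 24 members for control, where it called 4661 genes in all in place of 5433. It gave 20 members for knockout, where it leaves out progenitor replicate 4. For knockout against progenitors it called 3091 genes in all in place of 5098. Where the text names no cause, the cause was not tested.

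With 3 or 4 arrays a group, a missed threshold does not show that levels were equal. The fit over all 11 arrays takes in the spread of the progenitor arrays, of which replicate 2 stands apart and replicates 1 and 4 have low 5′ to 3′ ratios. Signals under 100 lie near the background of the array, and folds there are bounds or compressed by the added 16.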

Other observations

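Col6a1 and Col6a2, chains of the beaded-filament collagen VI, missed the filter and were not tested in the main fit. On progenitor arrays Col6a1 gave 17.6 to 44.7, below all 7 oligodendrocyte arrays, whose lowest was 98.2, while Col6a2 gave 86.8 to 164.4 on progenitor and 29 to 168.2 on control arrays and overlapped. Itga3, an alpha chain of laminin receptors, gave 130.6, 172.8 and 204.5 on knockout arrays against 94.7 to 128.9 on control arrays, without overlap. Mmp19 gave 1 to 22.3 on progenitor arrays and 63 to 209.5 on oligodendrocyte arrays. Adamts7 was highest in progenitors, at 80.7 to 267.5 against 35.2 to 57.2 on all oligodendrocyte arrays.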
